A study of Mus musculus with 4 samples.

Results

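Slc2a6 and 9 other genes of glucose uptake, glycolysis and lactate export were measured in skin of bleomycin (BLM) treated mice with and without gasdermin D (GSDMD). They are 10 of the 24441 genes in the deposited table and were picked by name: the glucose transporters Slc2a1 and Slc2a6, the hexokinases Hk1, Hk2 and Hk3, the enzymes Pfkp, Pfkfb3, Pkm and Ldha, and the lactate exporter Slc16a3. Slc2a6 led the choice because it was much lower in GSDMD KO skin in these same libraries. The differences between KO and WT mice given for the 10 genes are therefore descriptions, without a test.

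The skin came from female C57BL/6 mice at 8 weeks, 2 WT and 2 carrying the GSDMD-/- genotype. Both groups had received BLM, an antibiotic that provokes skin fibrosis, under the skin of the back every other day until day 28, so none of the 4 libraries is from untreated skin. The KO mice derive from C57BL/6 zygotes edited with Cas9, so the gene was not removed in a chosen cell type only, and were compared with age- and sex-matched rather than littermate WT mice as far as the methods state. GSDMD is the protein that opens pores in the cell membrane in pyroptosis, an inflammatory cell death. Values are FPKM, fragments per kilobase of transcript, scaled to the depth of the library, which allow levels to be compared between genes because transcript length is divided out.

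Glucose enters cells through transporters of the SLC2A (GLUT) family and is trapped by hexokinases as glucose 6-phosphate. Phosphofructokinase, which is activated by fructose 2,6-bisphosphate, commits it to glycolysis. Pyruvate kinase and lactate dehydrogenase form pyruvate and lactate at the end of the pathway, and monocarboxylate transporters carry lactate out of the cell. In skin, keratinocytes rely on SLC2A1 for glucose uptake, while macrophages and neutrophils raise glycolysis when activated and skeletal muscle under the skin carries very large amounts of glycolytic enzymes. Hypoxia-inducible factor (HIF) drives many of these genes through short DNA elements.

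Start regions of 4 members are shown because Slc2a6 and Hk3 had the largest folds between the group means, Slc2a1 was higher in KO skin, and Ldha had the highest level. Each is the 250 bases before a RefSeq transcription start, read 5′ to 3′ on the gene's strand and placed on build mm9. Capitals mark the letters ACGTG, known as the core of HIF elements, the related letters GCGTG, and the letters GAGGAA, the core that the myeloid factor PU.1 binds, each on either strand, so that a match on the other strand shows as its reverse complement. Overlapping matches, on the same or the other strand, were each counted. The Slc2a6 window lies at chr2:26883519-26883768 on the minus strand, that of Hk3 at chr13:55122747-55122996 on the minus strand, that of Slc2a1 at chr4:118781100-118781349 on the plus strand, and that of Ldha at chr7:54100924-54101173 on the plus strand.
Slc2a6: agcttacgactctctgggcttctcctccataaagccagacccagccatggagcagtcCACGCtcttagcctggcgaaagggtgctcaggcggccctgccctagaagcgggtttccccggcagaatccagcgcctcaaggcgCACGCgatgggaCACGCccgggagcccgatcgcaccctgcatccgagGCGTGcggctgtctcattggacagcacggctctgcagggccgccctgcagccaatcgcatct
Hk3: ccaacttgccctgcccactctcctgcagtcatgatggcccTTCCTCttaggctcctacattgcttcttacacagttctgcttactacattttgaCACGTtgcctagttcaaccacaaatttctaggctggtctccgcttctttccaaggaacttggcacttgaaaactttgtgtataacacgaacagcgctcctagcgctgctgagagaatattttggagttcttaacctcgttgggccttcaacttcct
Slc2a1: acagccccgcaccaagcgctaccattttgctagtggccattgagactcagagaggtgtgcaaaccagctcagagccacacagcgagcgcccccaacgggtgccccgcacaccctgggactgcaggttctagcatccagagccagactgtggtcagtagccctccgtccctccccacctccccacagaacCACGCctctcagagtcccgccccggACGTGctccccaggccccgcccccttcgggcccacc
Ldha: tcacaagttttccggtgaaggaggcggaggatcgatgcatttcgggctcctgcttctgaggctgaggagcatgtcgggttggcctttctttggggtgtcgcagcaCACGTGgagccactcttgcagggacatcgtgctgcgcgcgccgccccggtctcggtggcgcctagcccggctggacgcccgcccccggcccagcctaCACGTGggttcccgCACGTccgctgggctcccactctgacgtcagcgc
The Slc2a6 window held GCGTG 4 times and ACGTG 0 times, at 65.2% GC. That of Hk3 held 1 ACGTG and 1 GAGGAA, at 47.2% GC. In the Slc2a1 window ACGTG and GCGTG each occurred 1 time. Ldha had 5 ACGTG matches, of which 4 came from a pair of CACGTG palindromes that match on both strands. All 10 members matched a RefSeq entry, with 14 windows between them. ACGTG occurred in 8 of the 14 windows, against 16.6% of 32851 windows of the same length for all genes, and GCGTG in 6 of 14 against 28.2%. The letters GAGGAA occurred in 3 of 14 windows against 23.3%, and TATAAA in 0 of 14 against 12.4%. Both HIF letter strings contain CpG, and 12 of the 14 member windows lay above the median GC content of all windows (52.4%) and 12 above their median of 6 CpG, whose part in these counts was not tested. The matches describe letters and were not measured as binding sites.

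The libraries differed in ways that touch the members. KO replicate 2 stood farthest from the other libraries on the first principal component, and 4 of 15 Y-linked genes were above 0 there and in no other library, although all mice are labelled female. Skin was present in all 4 libraries, with Krt5 and Krt14, keratins of basal keratinocytes, between 764.1 and 2735 FPKM. So was skeletal muscle, with Acta1, the muscle actin, between 3728 and 7681 FPKM. Gsdmd itself stood at 14.0 and 18.2 FPKM in WT mice, against 3.53 and 2.26 FPKM in KO mice. Depth was estimated at 12700000 to 17500000 fragments per library. A gene was tested if 2 or more libraries reached 1 FPKM, which 13027 genes did. At an adjusted p below 0.05 together with a difference beyond 1 in either direction on the log2(FPKM + 1) scale, limma called 0 of them, or 0%. The unadjusted p was below 0.05 for 2230 genes. Nothing in the sources says more about the independence of the 2 libraries of a group than that they are separate samples, so p-values measure the spread between these libraries.

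All 10 members passed the filter on low values. The KO pair lay wholly below the WT pair in 7 of them and wholly above it in 2, and in 1 the groups overlapped. Among all tested genes, the KO pair lay wholly below in 20.5% and wholly above in 35.3%. Because the members were picked with this contrast in view, nothing is read from that count. The median difference of the members, KO minus WT, was -0.59 on the log2(FPKM + 1) scale, beside 0.11 for all tested genes. Their summed level was 2650 and 2785 FPKM in WT mice, against 1842 and 1881 FPKM in KO mice, most of it Ldha and Pkm.

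**Figure D1:**
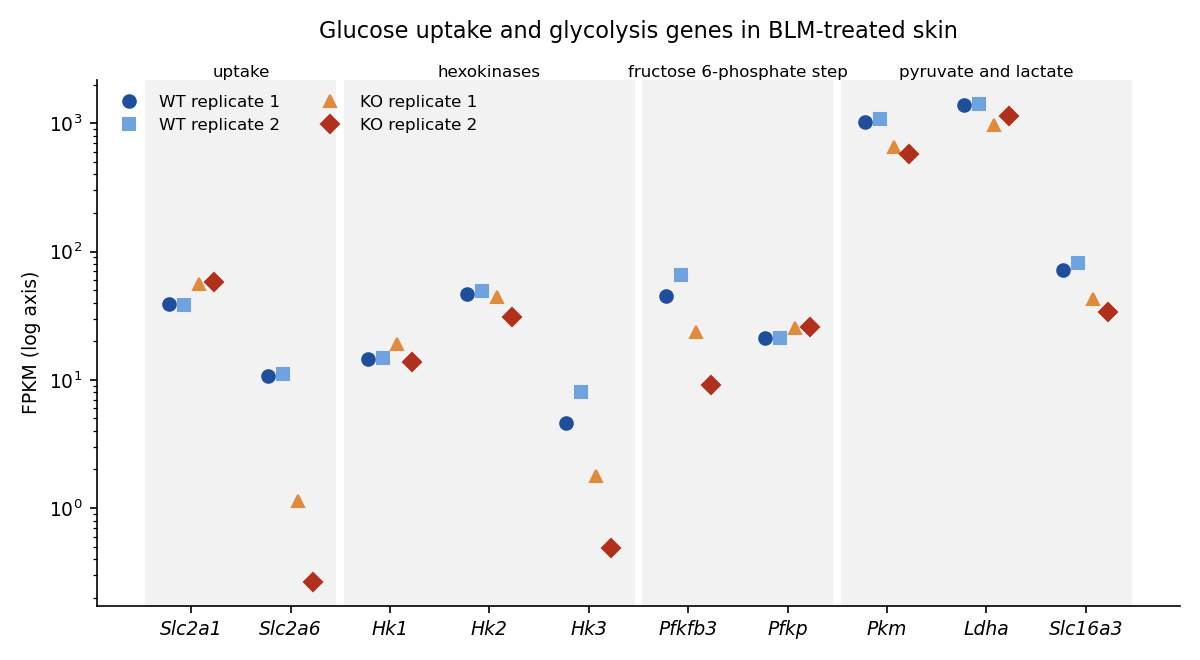
FPKM on a log axis of the 10 members in each of the 4 libraries, WT and KO replicates as separate points. Ldha and Pkm lie above all other members in every library, and the widest gap between the groups is that of Slc2a6.

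In WT skin the order of mean levels, in FPKM, ran from Ldha through Pkm, Slc16a3, Pfkfb3, Hk2, Slc2a1, Pfkp, Hk1 and Slc2a6 to Hk3. Only Pfkfb3 and Hk2 overlapped as neighbours in that order. In KO skin the order was Ldha, Pkm, Slc2a1, Slc16a3, Hk2, Pfkp, Hk1, Pfkfb3, Hk3 and Slc2a6. There the neighbours Slc16a3 and Hk2, Hk1 and Pfkfb3, and Hk3 and Slc2a6 overlapped. Slc2a1 thus stood at place 6 in WT and place 3 in KO skin, and Pfkfb3 at place 4 and place 8.

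Of the transporters, Slc2a6 (GLUT6, a hexose transporter found on lysosomal membranes) stood at 10.7 and 11.1 FPKM in WT mice, against 1.14 and 0.266 FPKM in KO mice. The KO pair was far below the WT pair, and KO replicate 2 was the lowest. The group means were 10.9 ± 0.319 and 0.705 ± 0.621 FPKM (SD, n = 2), 15.5-fold lower in KO skin. The log2(FPKM + 1) difference was -2.85 (SE 0.38), being -2.47 for KO replicate 1 and -3.23 for KO replicate 2 against the WT mean. About 399.3 and 340.8 fragments lay behind the WT values, and about 33.6 and 7.24 behind the KO values, so the lowest value rests on few fragments. Of all tested genes, 0.276% had a lower difference. Slc2a6 lies on chromosome 2 of mm9 from 26876884 to 26883518, has 10 exons, and no exon of another annotated gene overlaps its exons.

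Slc2a1 (GLUT1, the transporter for basal glucose uptake) stood at 39.2 and 38.5 FPKM in WT mice, against 55.5 and 57.5 FPKM in KO mice. The KO pair was above the WT pair, with little spread within either group. The gene lies on chromosome 4 from 118781349 to 118809934. Its difference was 0.53 (SE 0.03) on the log2(FPKM + 1) scale, a 1.45-fold higher mean. Upper-quartile and median-ratio scaling both put the difference at 0.41, so its size depends on the scaling by more than its SE. The ratio of Slc2a6 to Slc2a1, on the FPKM scale, was 0.272 and 0.290 in WT skin and 0.0206 and 0.00463 in KO skin. Among 8 SLC2A transporters summed, Slc2a1 made up 24.5% and 22.1% in WT skin and 40.8% and 46.8% in KO skin. Slc2a4 (GLUT4, the insulin-responsive transporter of muscle and fat) took the largest WT share, 60.9% and 62.4%, against 49.3% and 40.4% in KO skin.

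The hexokinases, which carry out the first step of glycolysis, differed among themselves. On mm9, Hk1 lies on chromosome 10 from 61731602 to 61842656, Hk2 on chromosome 6 from 82675020 to 82724448 and Hk3 on chromosome 13 from 55107345 to 55122746. Hk1, the isoform most cell types use, stood at 14.4 and 14.7 FPKM in WT mice, against 19.1 and 13.7 FPKM in KO mice. The groups overlapped, with KO replicate 1 the highest and KO replicate 2 the lowest library, and the difference was 0.14 (SE 0.22) on the log2(FPKM + 1) scale, or 0.03 with upper-quartile or median-ratio scaling, 0.37 without KO replicate 2 and -0.08 without KO replicate 1. Hk2, the inducible isoform of muscle and fat, stood at 46.4 and 49.5 FPKM in WT mice, against 44.4 and 31.1 FPKM in KO mice. The groups did not overlap, although KO replicate 1 was only slightly below WT, and the difference of -0.36 (SE 0.25) became -0.11 without KO replicate 2 and -0.61 without KO replicate 1.

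Hk3, the isoform of myeloid cells, stood at 4.61 and 8.02 FPKM in WT mice, against 1.78 and 0.490 FPKM in KO mice. Here too the KO pair was the lower one, and the order of the KO replicates was that of Slc2a6. The mean was 5.55-fold lower in KO skin, with a log2(FPKM + 1) difference of -1.80 (SE 0.57), and the estimated fragments were 259.3 and 369.3 against 79.0 and 20.1. Of the FPKM summed over Hk1, Hk2 and Hk3, Hk3 held 7.05% and 11.1% in WT skin and 2.73% and 1.08% in KO skin, while Hk1 held 22.1% and 20.3% against 29.2% and 30.3%. Hk2 was the largest in every library, between 68.0% and 70.9%. Hk1 and Hk3 each share exonic bases with a gene on the opposite strand, 2210417K05Rik and Unc5a, and whether reads were counted by strand is not given in the sources used here.

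At the phosphofructokinase step, Pfkp, the platelet-type isoform, stood at 21.3 and 21.4 FPKM in WT mice, against 25.6 and 25.9 FPKM in KO mice. The KO pair was above the WT pair by a small amount, a 1.21-fold higher mean and 0.26 (SE 0.01) on the log2(FPKM + 1) scale, which upper-quartile and median-ratio scaling both put at 0.14, so its size depends on the scaling by more than its SE. It was 3.85% and 3.70% of the phosphofructokinase FPKM in WT skin and 7.15% and 9.99% in KO skin. The muscle isoform Pfkm made up the bulk of it, 93.3% and 90.6% in WT skin and 87.1% and 84.6% in KO skin. Pfkp lies on chromosome 13 from 6579119 to 6648017 and shares exonic bases with Pitrm1 on the opposite strand.

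Pfkfb3, the kinase that makes fructose 2,6-bisphosphate and so activates phosphofructokinase, stood at 44.9 and 65.9 FPKM in WT mice, against 23.7 and 9.05 FPKM in KO mice. The groups did not overlap, although the replicates of each group were also far apart. The group means were 55.4 ± 14.8 and 16.4 ± 10.4 FPKM (SD, n = 2), 3.38-fold lower in KO skin, and the log2(FPKM + 1) difference was -1.81 (SE 0.70). Without KO replicate 2 it was -1.17 and without KO replicate 1 it was -2.46. Of the 4 PFKFB genes together, Pfkfb3 held 61.6% and 65.8% in WT skin and 49.4% and 26.9% in KO skin. The gene lies on chromosome 2 from 11393057 to 11475556. Pfkfb2 held 5.79% and 2.74% in WT skin and 12.6% and 24.95% in KO skin.

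At the end of the pathway, Pkm, pyruvate kinase of muscle and proliferating cells, stood at 1016 and 1074 FPKM in WT mice, against 658.4 and 573.9 FPKM in KO mice. The KO pair was below the WT pair, with a 1.70-fold lower mean and a log2(FPKM + 1) difference of -0.76 (SE 0.11). It lies on chromosome 9 from 59504174 to 59527182, and gene-level values do not separate its M1 and M2 isoforms. Ldha, which converts pyruvate to lactate, stood at 1381 and 1420 FPKM in WT mice, against 969.5 and 1136 FPKM in KO mice. The groups did not overlap, but here KO replicate 1 was the lowest, and the difference was -0.42 (SE 0.12), a 1.33-fold lower mean. Against Ldhb, the heart-type subunit, Ldha, on chromosome 7 from 54101173 to 54110997, held 94.1% and 93.3% of the summed FPKM in WT skin and 90.8% and 86.0% in KO skin.

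Slc16a3 (MCT4, the exporter of lactate from glycolytic cells) stood at 71.6 and 81.7 FPKM in WT mice, against 43.1 and 33.7 FPKM in KO mice. The groups did not overlap, and KO replicate 2 was the lowest. The mean was 2.00-fold lower in KO skin, with a log2(FPKM + 1) difference of -0.99 (SE 0.20). Slc16a1 (MCT1), which carries lactate both ways, was higher in KO skin, with 17.1 and 16.7 FPKM in WT mice, against 22.2 and 35.9 FPKM in KO mice. Slc16a3 held 79.8% and 82.0% of the summed FPKM of 3 monocarboxylate transporters in WT skin and 65.3% and 47.9% in KO skin. Slc16a3 lies on chromosome 11 from 120809797 to 120820314. It shares exonic bases with Csnk1d, and Slc2a1 with Gm12868, each on the opposite strand.

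**Figure D2:**
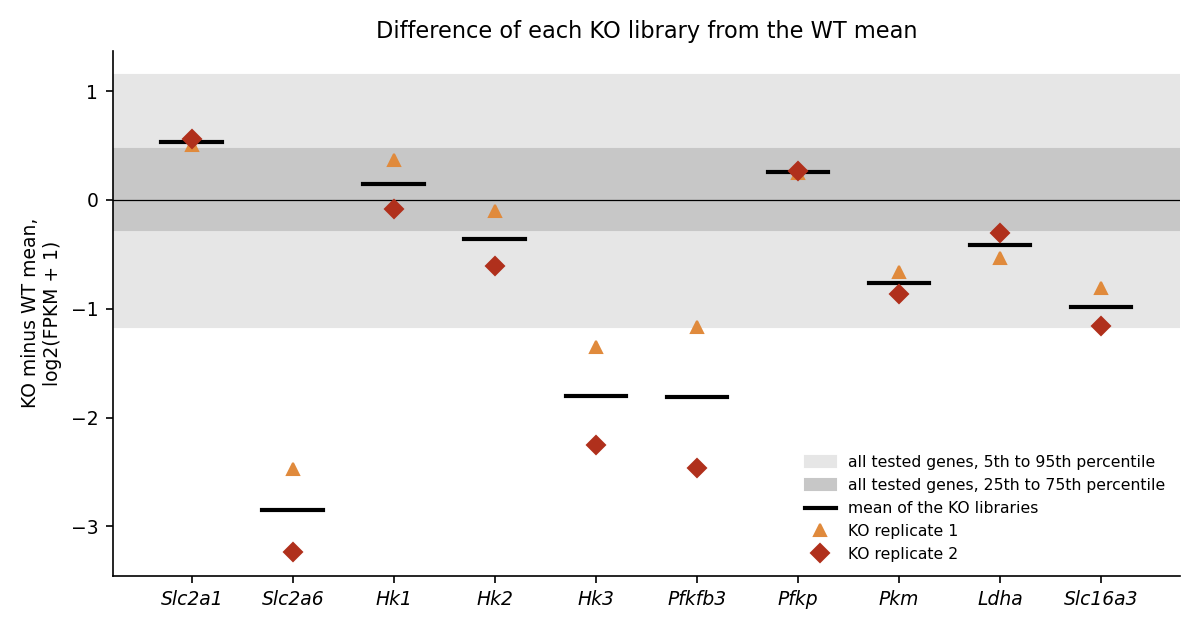
Difference of each KO library from the WT mean on the log2(FPKM + 1) scale for the 10 members, with a black bar for the mean of the 2 KO libraries and grey bands for the spread of all tested genes (5th to 95th and 25th to 75th percentile). Hk1 alone has its KO libraries on opposite sides of 0, and Slc2a6, Pfkfb3 and Hk3 lie farthest below it.

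**Figure D3:**
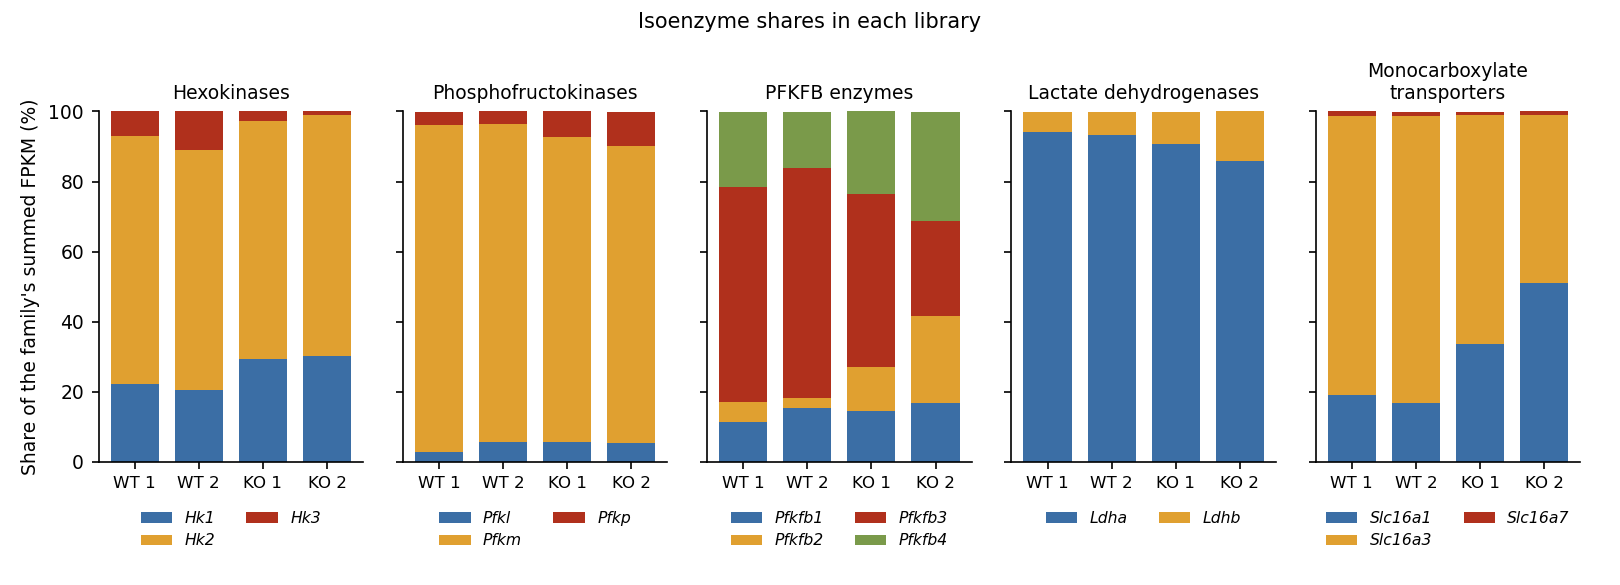
Share in percent of the summed FPKM that each isoform or family member holds in each of the 4 libraries, as stacked bars for 5 enzyme and transporter families. Slc16a3, Pfkfb3, Hk3 and Ldha hold a smaller share and Pfkp and Hk1 a larger share in both KO libraries than in both WT libraries.

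Markers of the cells that skin contains differed alongside the members, and fewer cells of a type and less RNA per cell cannot be told apart in bulk tissue. All 10 macrophage markers were lower by their mean log2 difference, 0 of them at the adjusted threshold. In 9 of the 10 the groups did not overlap (20.5% of all tested genes). Their summed level was 2139 and 2224 FPKM in WT mice, against 875.2 and 94.7 FPKM in KO mice. Lyz2, the lysozyme of myeloid cells, was the largest of them, with 1260 and 1037 FPKM against 411.6 and 51.8 FPKM. The median macrophage marker stood at -1.21 in KO replicate 1 and -3.95 in KO replicate 2 against the WT mean on the log2(FPKM + 1) scale. Slc2a6 stood at -2.47 and -3.23 in the same libraries, Hk3 at -1.35 and -2.26, and Pfkfb3 at -1.17 and -2.46. The added 1 FPKM limits how far a gene of low level can fall on this scale, so these differences are not ranked against each other. Of 8 neutrophil markers, 5 were tested and 5 were lower by their mean log2 difference, 4 without overlap, with sums of 764.0 and 626.3 FPKM in WT mice, against 309.6 and 151.0 FPKM in KO mice. Ly6g and Mpo, defining neutrophil genes, reached at most 0.238 and 0.0278 FPKM in any library.

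The 8 skeletal muscle markers were lower by their mean log2 difference. In 5 of them the KO pair was wholly below the WT pair (20.5% of all tested genes). In the other 3, Myh1, Myh2 and Tnnt3, the groups overlapped. Of the 8 markers, 0 passed the adjusted threshold. They had sums of 24193 and 22568 FPKM in WT mice, against 14997 and 13809 FPKM in KO mice. Their medians were -0.64 and -1.16 in KO replicates 1 and 2, beside -0.67 and -0.86 for Pkm, -0.53 and -0.30 for Ldha and -0.81 and -1.16 for Slc16a3, all on the log2(FPKM + 1) scale. The 6 keratinocyte markers were higher by their mean log2 difference, 3 of them without overlap (35.3% of all tested genes), with sums of 3517 and 2740 FPKM in WT mice, against 7852 and 4986 FPKM in KO mice. Their medians were 1.70 and 0.47, beside 0.50 and 0.55 for Slc2a1 and 0.25 and 0.27 for Pfkp. Against the same WT mean, the keratinocyte median stood at 0.46 in WT replicate 1 and -0.46 in WT replicate 2. In KO replicate 2, Krt1 (-0.85), Krt10 (-0.97) and Ivl (-0.18), genes of differentiating keratinocytes, were below the WT mean, and Krt5, Krt14 and Dsg1a above it. The 7 tested hair follicle markers were also higher by their mean log2 difference, mainly in KO replicate 1, where the 8 listed summed to 327.6 FPKM against 0.722 to 9.70 FPKM in the other libraries. Fibroblast markers summed to 269.3 and 180.1 FPKM in WT mice, against 422.0 FPKM in KO replicate 1 and 24.9 FPKM in KO replicate 2, and their medians against the WT mean were 0.80 and -2.71. The endothelial medians were 0.03 and -2.61 in KO replicates 1 and 2, and the adipocyte medians -0.50 and -4.03. Of the KO pair, replicate 2 alone was thus below WT in the fibroblast and endothelial medians. Of the red blood cell markers 2 were tested and 2 were lower by their means. The part of these cells in the values of the members was not tested.

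**Figure D4:**
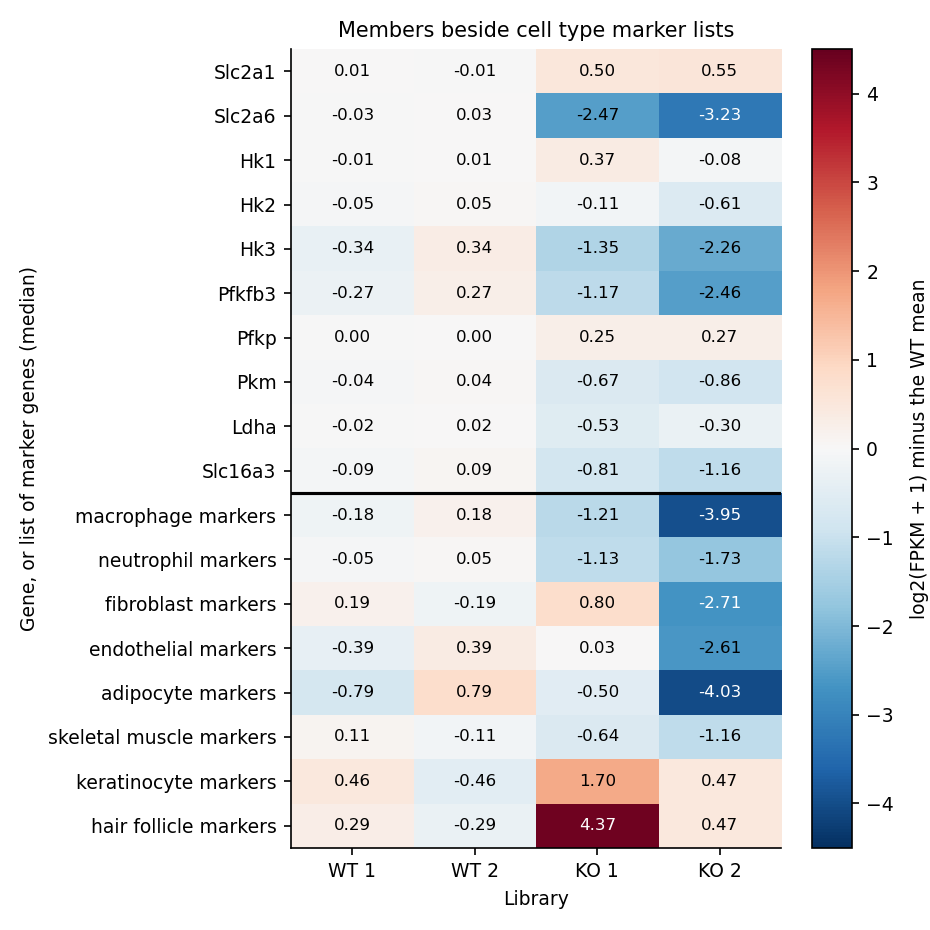
Heat map of the difference from the WT mean, in log2(FPKM + 1) units, of the 10 members and of the median of 8 marker lists in the 4 libraries. The macrophage, neutrophil, adipocyte and skeletal muscle medians are negative in both KO libraries, as are Slc2a6, Hk2, Hk3, Pfkfb3, Pkm, Ldha and Slc16a3. The keratinocyte and hair follicle medians, Slc2a1 and Pfkp are positive in both. Yet 3 of the 6 keratinocyte markers are below the WT mean in KO replicate 2. The keratinocyte median of WT replicate 1 (0.46) lies near that of KO replicate 2 (0.47).

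Genes whose profile over the 4 libraries lay near that of Slc2a6 included Cd300lf, Clec4e, Slamf9 and Fgr, 4 of the 5 nearest. Nearness is the root mean square distance of centred log2(FPKM + 1) values, which was 0.158 to 0.235 for these 4 against a median of 1.52 over all tested genes. Clec4e, a C-type lectin receptor, stood at 12.1 and 11.0 FPKM in WT mice, against 0.674 and 0.253 FPKM in KO mice. Nearest to Hk3 were Batf, Arhgap45 and Was at 0.0552 to 0.0670, against a median of 1.07. These genes were picked for the smallest distances, so their standing below the median was fixed in advance. With 4 libraries, many genes can take a similar profile.

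The other genes of glucose metabolism were listed by role in 9 lists of 87 genes, of which 77 were tested. Called at the adjusted threshold by limma with Benjamini-Hochberg adjustment were 0 of them, with adjusted p from 0.248 to 0.981. At an unadjusted p under 0.05 of any size, 16 were lower and 3 higher in KO skin, against 6.22% and 10.9% of all tested genes. With an absolute log2 fold change above 1 as well, 5 were lower and 2 higher, against 4.14% and 6.16% of all tested genes. That count became 10 lower and 0 higher with upper-quartile or median-ratio scaling, and over all genes the split of 539 lower and 802 higher became 708 and 633 with median-ratio scaling. It was 1 lower and 0 higher without WT replicate 2 and without KO replicate 2, 8 and 0 without WT replicate 1, and 16 and 7 without KO replicate 1. By their means 55 of the 77 were lower and 22 higher, beside 5392 lower and 7635 higher of the 13027 tested genes. The split of the 77 became 60 and 17 with median-ratio scaling, and 51 to 55 were lower when 1 library was left out. The KO pair was wholly below the WT pair in 36 of the 77, or 46.8% (20.5% of all tested genes), and wholly above it in 11, or 14.3% (35.3%). The median difference was -0.34 on the log2(FPKM + 1) scale, beside 0.11 for all tested genes. Without KO replicate 1 the adjusted count was 14 of the 77, beside 15.8% of all tested genes, with the remaining KO library taken to vary like the WT pair, and leaving out any other library it was 0.

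Of 6 tested glucose transporters 5 were lower by their means and 1 higher, with a median of -0.18 that was -0.38 without WT replicate 1 and 0.02 without WT replicate 2. The most abundant, Slc2a4, stood at 97.8 and 108.8 FPKM in WT mice, against 67.2 and 49.7 FPKM in KO mice (-0.82, adjusted p = 0.257 by limma, Benjamini-Hochberg). Of 15 tested glycolytic enzymes 12 were lower and 3 higher, with a median of -0.51. Their largest, Aldoa, the muscle-type aldolase, stood at 3543 and 3228 FPKM in WT mice, against 2293 and 2306 FPKM in KO mice (-0.56, adjusted p = 0.334). The glycolytic list holds several isoforms that muscle is known for, and the skeletal muscle markers given above were lower in the same libraries. Of the 4 fructose 2,6-bisphosphate enzymes 3 were lower, with a median of -0.33. Tigar, a fructose bisphosphatase, was the most abundant of them at 18.0 and 16.2 FPKM in WT mice, against 16.2 and 14.3 FPKM in KO mice.

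Of 6 tested lactate and monocarboxylate genes 3 were lower and 3 higher, and the median was 0.12. It was 0.007 with upper-quartile and 0.005 with median-ratio scaling. Leaving out 1 library gave -0.13 without KO replicate 2, 0.38 without KO replicate 1, 0.02 without WT replicate 1 and 0.22 without WT replicate 2. Bsg, the membrane chaperone of the lactate transporters, stood at 377.2 and 431.1 FPKM in WT mice, against 321.3 and 345.6 FPKM in KO mice (-0.27, adjusted p = 0.546, or -0.18 without WT replicate 2). Of 12 genes for pyruvate entry into mitochondria 7 were lower and 5 higher, with a median of -0.28. Upper-quartile and median-ratio scaling both gave 10 lower and 2 higher, with a median of -0.40. The median was -0.09 without WT replicate 1 (6 lower and 6 higher) and -0.11 without KO replicate 1. Without KO replicate 2 the split was 11 lower and 1 higher. Mpc2, a subunit of the mitochondrial pyruvate carrier, stood at 183.0 and 191.0 FPKM in WT mice, against 152.2 and 264.1 FPKM in KO mice, so the KO libraries lay on either side of WT. Its difference of 0.10 became -0.02 with median-ratio or upper-quartile scaling and -0.29 without KO replicate 2.

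In the pentose phosphate pathway 6 of 8 tested genes were lower and 2 higher, with a median of -0.28 that was -0.60 without WT replicate 1 and 0.06 without WT replicate 2. H6pd, the glucose 6-phosphate dehydrogenase of the endoplasmic reticulum, stood at 15.6 and 28.0 FPKM in WT mice, against 11.2 and 5.44 FPKM in KO mice (-1.31, adjusted p = 0.264). Rpe, ribulose-phosphate epimerase, was higher in KO skin with 5.85 and 5.40 FPKM against 9.19 and 17.7 FPKM (1.06, adjusted p = 0.264). Taldo1, transaldolase, the most abundant of the list, differed by -0.20, which became 0.10 without WT replicate 2. All 5 tested genes of gluconeogenesis were lower by their means, with a median of -0.95, but without KO replicate 2 the median was -0.26 and 4 were lower and 1 higher. Pcx, pyruvate carboxylase, stood at 53.4 and 234.6 FPKM in WT mice, against 34.6 and 23.1 FPKM in KO mice (-1.95, adjusted p = 0.280; -3.01 without WT replicate 1 and -0.89 without WT replicate 2), and its WT replicates were far apart. Adiponectin (Adipoq), an adipocyte marker, stood at 213.6 and 648.9 FPKM in the same WT libraries, against 187.1 and 16.9 FPKM in KO mice. Any link between Pcx and Adipoq was not tested.

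Of 8 glycogen genes 6 were lower and 2 higher, and in the 6 lower ones the KO pair was wholly below the WT pair, as in 20.5% of all tested genes. Pygm, the glycogen phosphorylase of muscle, stood at 996.7 and 906.2 FPKM in WT mice, against 484.8 and 327.6 FPKM in KO mice (-1.25, adjusted p = 0.248). The liver form Pygl had 17.4 and 41.0 FPKM against 12.0 and 4.07 FPKM (-1.78, adjusted p = 0.264, or -1.18 without WT replicate 2). Of 13 hypoxia and glycolysis regulators 8 were lower and 5 higher, with a median of -0.04. Leaving out KO replicate 1 put the median at -0.11 and leaving out KO replicate 2 at 0.12. Upper-quartile and median-ratio scaling both gave 9 lower and 4 higher, with a median of -0.14. Txnip, which restrains glucose uptake, stood at 271.8 and 278.4 FPKM in WT mice, against 184.7 and 97.9 FPKM in KO mice (-1.03, adjusted p = 0.272). Myc, a transcription factor that drives glycolytic genes, had 9.21 and 8.54 FPKM against 13.5 and 30.9 FPKM (1.13, adjusted p = 0.282). None of the differences in these 9 lists passed the adjusted threshold with all 4 libraries. Without KO replicate 1, a setting that rests on KO replicate 2 alone and called 15.8% of all tested genes, the genes past it included H6pd, Rpe, Pygm, Pygl, Txnip and Myc at adjusted p of 0.0131 to 0.0256. Without KO replicate 2 their differences were -0.85 for H6pd, 0.62 for Rpe, -0.97 for Pygm, -1.10 for Pygl, -0.57 for Txnip and 0.56 for Myc, at adjusted p of 0.272 to 0.579.

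**Figure D5:**
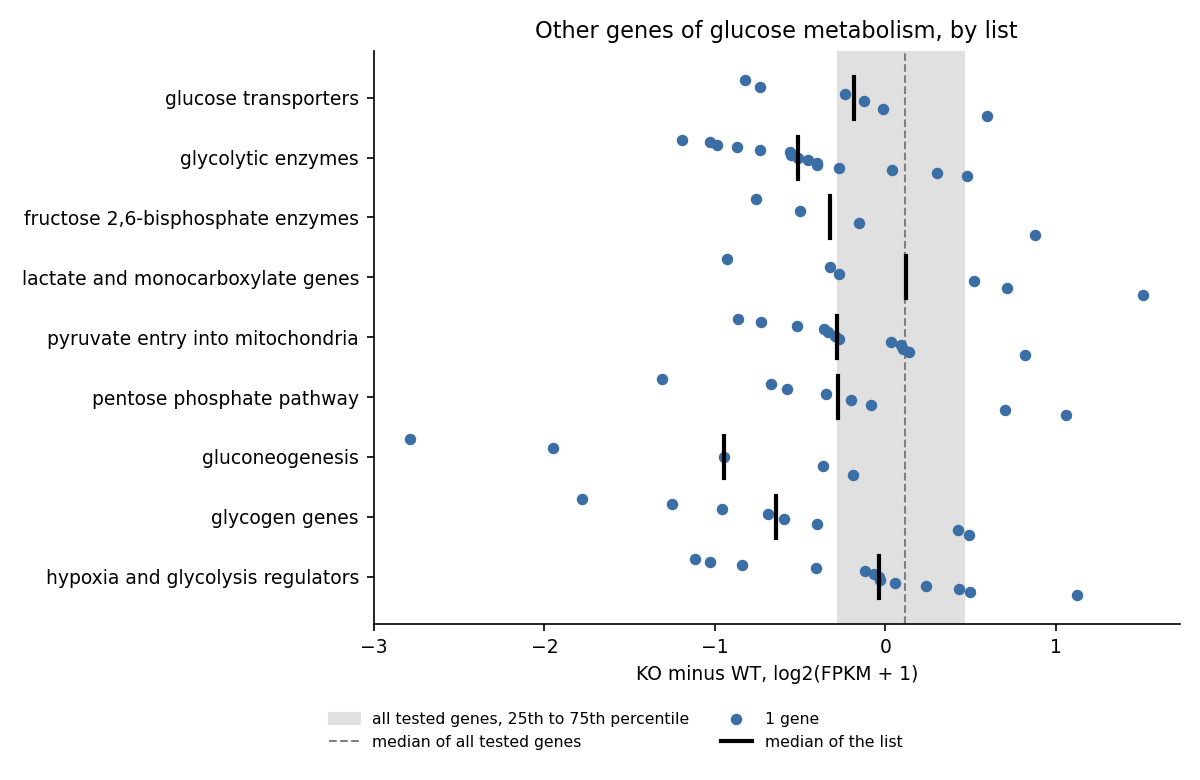
Difference KO minus WT on the log2(FPKM + 1) scale of each of the 77 tested genes in 9 lists, 1 point per gene, with the median of each list as a black bar. Gluconeogenesis and glycogen genes have the lowest medians with all 4 libraries, -0.95 and -0.64, while without KO replicate 2 glycolytic enzymes (-0.59) and glycogen genes (-0.47) do, and the grey band spans the middle of all tested genes from -0.28 to 0.46.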

How the data were processed

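RNA of 4 skin libraries, 2 WT and 2 KO, was analysed. Per the methods and the submitters' processing notes, reads were mapped by the authors with HISAT2 version 2.0.1 to mm9, and StringTie version 2.0.6 is also listed. The deposited table holds FPKM values, already divided by the authors by transcript length and depth (99.993% of values above 0 are not whole), so the count test of the methods was not used. Because the table holds no counts, depth was estimated from the step of 1 fragment in 2710 genes with 1 transcript of at least 2 kb and is approximate. A transcript of 1 kb with 3 fragments would stand at 0.172 to 0.236 FPKM. No interval was derived from it.

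Values were taken as log2(FPKM + 1), a scale that understates the change of low genes. Genes that reached 1 FPKM in 2 or more libraries entered a limma version 3.58.1 fit (R version 4.3.3, genotype only, mean-variance trend, two-sided), with Benjamini-Hochberg adjustment of its p-values. The script was tested on simulated data. Standard errors of members come from the 4 libraries alone, without moderation. No p-value is given for members, because the contrast was used to pick them. Python version 3.11.15 and pandas version 2.3.3 made the tables.

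The members and all lists were chosen with earlier results of these data known. Named were the members, Gsdmd, the most abundant gene of each pathway list, up to 3 genes in each direction of each pathway list with unadjusted p under 0.05 and absolute log2 fold change above 1, up to 3 markers of each list with the highest mean FPKM, and the nearest profiles, 5 for Slc2a6 and 3 for Hk3, of which 1 is not reported here. Isoforms set beside members, the letters searched in start regions, the further markers of neutrophils, muscle and keratinocytes, and the genes of the closing section were chosen after values were seen. Windows came from RefSeq (GRCm38.p6) and were placed on mm9 by exact match, and exons came from GENCODE vM1. The alternatives were other pseudocounts, filters and scalings, no trend, a replicate block and leaving out each library.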

Additional observations from a re-analysis of the deposited data

How the results depend on the processing

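Under 5 alternatives of pseudocount and scaling, 15 of 50 member values moved by more than 1 standard error and 0 changed sign. Leaving out 1 library cannot move a member by more than that, and the blocks leave it as it is, so neither is counted here. Hk1 was -0.08 without KO replicate 1. A smaller pseudocount moved Slc2a6 most, to -4.03 with 0.1. The members' median of -0.59 was -0.71 with upper-quartile and -0.71 with median-ratio scaling, which also moved the median of all tested genes from 0.11 to 0.01, and ranged from -0.74 to -0.56 when 1 library was left out. The number of genes called was 0 under every alternative that kept the 4 libraries and ranged from 0 to 2058 when 1 library was left out, being 2058 without KO replicate 1 and 43 without KO replicate 2. The same range was 0 to 14 for the other pathway genes. At an unadjusted p, the 5 lower and 2 higher pathway genes became 3 and 1 without a filter, 10 and 0 with upper-quartile scaling, and 10 and 0 with median-ratio scaling. When 1 library was left out, they ranged from 1 to 16 lower and from 0 to 7 higher. Over all genes, the unadjusted split of 802 higher and 539 lower became 633 and 708 with median-ratio scaling. Mpc2 (0.10) was -0.018 with upper-quartile scaling and -0.020 with median-ratio scaling, and ranged from -0.29 (without KO replicate 2) to 0.50 when 1 library was left out. Taldo1 (-0.20) likewise ranged from -0.51 to 0.10, the latter without WT replicate 2. The cause was not tested.

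Same-numbered libraries were not paired: their deviations had a correlation of -0.20, and no source gives a number a shared litter or batch. The replicate block gave 0 genes called, 6 lower and 3 higher pathway genes at an unadjusted p, and by construction the same median of -0.59. A crossed replicate block, added after seeing the data, gave 9 lower pathway genes and 0 genes called. Depth limits the low values most, as about 7.24 fragments lay behind Slc2a6 in KO replicate 2.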

Other observations

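Branches that leave glycolysis were read in 26 further genes in 5 lists, all of them tested. limma with Benjamini-Hochberg adjustment called 0 of them, and at an unadjusted p under 0.05 of any size 3 were lower and 5 higher in KO skin, against 6.22% and 10.9% of all tested genes. The serine branch starts from 3-phosphoglycerate. In 5 of its 5 genes the KO pair was wholly above the WT pair, as in 35.3% of all tested genes, with a median difference of 0.86 on the log2(FPKM + 1) scale. Psat1, the phosphoserine aminotransferase, stood at 25.7 and 29.1 FPKM in WT mice, against 45.2 and 84.6 FPKM in KO mice (1.15, adjusted p = 0.254 by limma, Benjamini-Hochberg). Psph, the phosphatase that releases serine, had 12.2 and 12.0 FPKM against 20.3 and 76.5 FPKM (1.64, adjusted p = 0.286), and Phgdh, the first enzyme of the branch, had 12.7 and 14.9 FPKM against 22.1 and 30.3 FPKM. In all 3 genes KO replicate 2 was the highest library, and KO replicate 1 alone was 0.71 above the WT mean in Psat1 and 0.71 in Psph.

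The 7 genes of the glycerol 3-phosphate and NADH shuttles were all lower by their means, 6 of them with the KO pair wholly below the WT pair, as in 20.5% of all tested genes. Gpd1, which makes glycerol 3-phosphate in fat and muscle, stood at 207.2 and 391.1 FPKM in WT mice, against 107.7 and 100.7 FPKM in KO mice (-1.44, adjusted p = 0.248 by limma, Benjamini-Hochberg). Of 5 polyol and fructose genes 4 were lower, and Akr1b3, the aldose reductase, stood at 32.7 and 48.3 FPKM in WT mice, against 16.0 and 6.47 FPKM in KO mice (-1.85, adjusted p = 0.248). Of 5 hexosamine genes 2 were lower and 3 higher by their means, and of 4 galactose genes 2 were lower and 2 higher. Emb, a partner of lactate transporters, stood at 13.9 and 13.4 FPKM in WT mice, against 20.4 and 80.7 FPKM in KO mice (1.51, adjusted p = 0.311), with KO replicate 1 alone 0.54 and KO replicate 2 alone 2.48 above the WT mean.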
